A study of Homo sapiens with 4 samples.

Results

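The transcription factors that set intestinal and hepatic identity were followed by name in Caco-2, a cell line from a human colorectal adenocarcinoma whose confluent monolayers come to resemble absorptive enterocytes. The factors were CDX1, CDX2, HNF4A, HNF4G, GATA4, GATA6, FOXA1 and FOXA2, taken by symbol, with earlier results of these data known. Of these 8 genes, 7 had a probe set that the annotation pairs with that symbol alone, out of 18417 genes with such a probe set. Each of the 7 had 1 such probe set and none with several symbols, so no choice between probe sets was needed. HNF4A was not analysed here.

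There were 4 conditions with 1 array each: cholate on Transwell, vehicle on Transwell, cholate on the plate and vehicle on the plate. Transwell inserts are porous membranes coated with collagen, which give the cells separate apical and basolateral sides, and the plates were ordinary 6 well plates for which no coating is mentioned. Cholate, a primary bile acid used here as its sodium salt, was given at 2 mM for 3 h, on the apical side where the cells grew on inserts. It was dissolved in a salt buffer lacking calcium, and what the vehicle contained was not stated in the labels. All arrays carry the label of 21 days of differentiation, whereas the growth protocol gives 14 days for plates and 14 to 21 days for inserts, so support, coating and possibly culture age cannot be told apart. Each array held a pool of RNA from 3 samples of the same line, so no value below has a replicate check, and the number of arrays limits the precision.

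Levels are log2 intensities of 1 probe set per gene and carry no unit that allows one gene to be set against another. A floor was placed at the 40th percentile of the probe set means, a log2 intensity of 4.84, and 12900 genes lay above it. All 7 measured factors did, GATA4 closest to it with a mean 0.80 log2 above. The 4 arrays correlated at r of 0.977 to 0.993 across probe sets above the floor, and the array medians lay between 5.64 and 5.73. The epithelial markers EPCAM (12.7 to 12.8) and VIL1 (11.4 to 11.5) were far above the floor on every array, as were all 8 markers of epithelial and Caco-2 identity in their means. Of 6 fibroblast markers, DCN and LUM read at most 3.20, while COL1A1 (7.57 to 8.15), COL1A2 (5.19 to 5.30), COL3A1 (5.06 to 5.24) and PDGFRB (5.11 to 5.58) were above the floor on every array. Of 5 measured leukocyte markers, PTPRC (2.87 to 3.05) and CD3E were under the floor, and LCP1, CD14 and CD68 were above it. In a culture measured in bulk, fewer cells of a kind and less RNA per cell cannot be told apart.

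Identity of the intestinal and hepatic epithelium rests on a small set of DNA-binding proteins. CDX1 and CDX2 are homeobox factors of the posterior gut, and CDX2 is required for intestinal fate in the mouse. HNF4A and HNF4G are nuclear receptors that bind as dimers to enhancers of genes for lipid transport and metabolism in enterocytes and, for HNF4A, in hepatocytes. GATA4 and GATA6 are zinc finger factors, of which GATA4 is confined to the proximal small intestine of the mouse whereas GATA6 is found along its length. FOXA1 and FOXA2 are forkhead factors that bind closed chromatin and precede other factors at enhancers in liver and gut.

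Promoter windows are shown for the factor with the widest range over the 4 arrays, CDX2, and for the pair with the narrowest, FOXA1 and GATA6. Of the 8 factors, 4 had a promoter in the RefSeq table of assembly GRCh38.p14, and HNF4A, which was not measured, was left out. The windows hold the 250 bases before the annotated start, written 5′ to 3′ on the strand of the gene. They lie at chr13:27969316-27969565 on the minus strand for CDX2, chr14:37595250-37595499 on the minus strand for FOXA1 and chr18:22169339-22169588 on the plus strand for GATA6. Capitals mark letters that match 1 of 7 motifs searched on both strands.
CDX2: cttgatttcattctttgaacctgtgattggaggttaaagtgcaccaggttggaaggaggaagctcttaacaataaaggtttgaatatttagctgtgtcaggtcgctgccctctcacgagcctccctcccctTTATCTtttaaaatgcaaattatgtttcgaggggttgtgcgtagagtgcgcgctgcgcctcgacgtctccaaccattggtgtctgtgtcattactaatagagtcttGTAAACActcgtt
FOXA1: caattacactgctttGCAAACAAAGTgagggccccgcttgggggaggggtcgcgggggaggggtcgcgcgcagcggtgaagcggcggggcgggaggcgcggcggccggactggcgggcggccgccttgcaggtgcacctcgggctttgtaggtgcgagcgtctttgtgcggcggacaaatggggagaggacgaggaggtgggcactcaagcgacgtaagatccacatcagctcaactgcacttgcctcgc
GATA6: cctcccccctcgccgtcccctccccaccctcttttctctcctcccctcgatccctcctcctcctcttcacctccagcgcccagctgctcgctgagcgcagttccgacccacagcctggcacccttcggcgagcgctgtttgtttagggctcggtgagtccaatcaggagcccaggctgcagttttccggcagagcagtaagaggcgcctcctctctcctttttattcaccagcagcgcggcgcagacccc
The motifs were TTTATG for CDX factors, AGATAA and TGATAA for GATA factors, TGTTTAC and TGTTTGC for forkhead factors, GTTAAT for HNF1 factors and CAAAGT for HNF4 factors. In the CDX2 window AGATAA lay on the opposite strand, starting 119 bases before the start of the gene, and TGTTTAC on the opposite strand at 13 bases. In the FOXA1 window TGTTTGC lay on the opposite strand at 235 bases and overlapped a CAAAGT on the printed strand at 230 bases. The GATA6 window held none of the 7. Among 35116 RefSeq promoter windows of the same length, 9.17% held AGATAA, 2.98% held TGTTTAC, 3.23% held TGTTTGC and 10.3% held CAAAGT, against 9.64% for TTTATG, 6.66% for TGATAA and 6.23% for GTTAAT. A match describes letters and is no measure of binding.

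CDX2 (Entrez gene 1045, chromosome 13) had a log2 intensity of 9.48 in cholate and 9.68 in vehicle on Transwell, against 8.92 in cholate and 8.68 in vehicle on the plate. Both Transwell arrays were above both plate arrays. The range over the 4 arrays was 1.0 log2, and 96.3% of the genes above the floor had a narrower one. CDX1 (Entrez gene 1044, chromosome 5), its relative, had 6.54 in cholate and 6.41 in vehicle on Transwell, against 6.61 in cholate and 6.43 in vehicle on the plate. These values spanned 0.21 log2, and the arrays of each support overlapped. A narrower range than that of CDX1 was found for 27.1% of the genes above the floor.

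HNF4G (Entrez gene 3174, chromosome 8) had 7.51 in cholate and 7.29 in vehicle on Transwell, against 7.02 in cholate and 6.79 in vehicle on the plate. Both Transwell arrays were above both plate arrays, and within each support the cholate array was the higher. The range was 0.72 log2, wider than in 90.9% of genes above the floor.

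GATA4 (Entrez gene 2626, chromosome 8) had 5.79 in cholate and 5.48 in vehicle on Transwell, against 5.77 in cholate and 5.53 in vehicle on the plate. Both cholate arrays were above both vehicle arrays, whichever the support, and the range of 0.31 log2 was wider than in 49.5% of genes. GATA6 (Entrez gene 2627, chromosome 18) had 9.33 in cholate and 9.30 in vehicle on Transwell, against 9.29 in cholate and 9.30 in vehicle on the plate. Its range was 0.037 log2, and 0.481% of the genes above the floor had a narrower one.

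FOXA1 (Entrez gene 3169, chromosome 14) had 9.38 in cholate and 9.37 in vehicle on Transwell, against 9.38 in cholate and 9.29 in vehicle on the plate. Its range was 0.092 log2, narrower than in all but 4.60% of genes above the floor. FOXA2 (Entrez gene 3170, chromosome 20) had 7.33 in cholate and 7.17 in vehicle on Transwell, against 7.82 in cholate and 7.42 in vehicle on the plate. Both Transwell arrays were below both plate arrays, and within each support the cholate array was the higher. The range of 0.66 log2 was wider than in 88.8% of genes. The median range of the 7 factors was 0.31 log2, which was also the median over all 12900 genes.

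**Figure D1:**
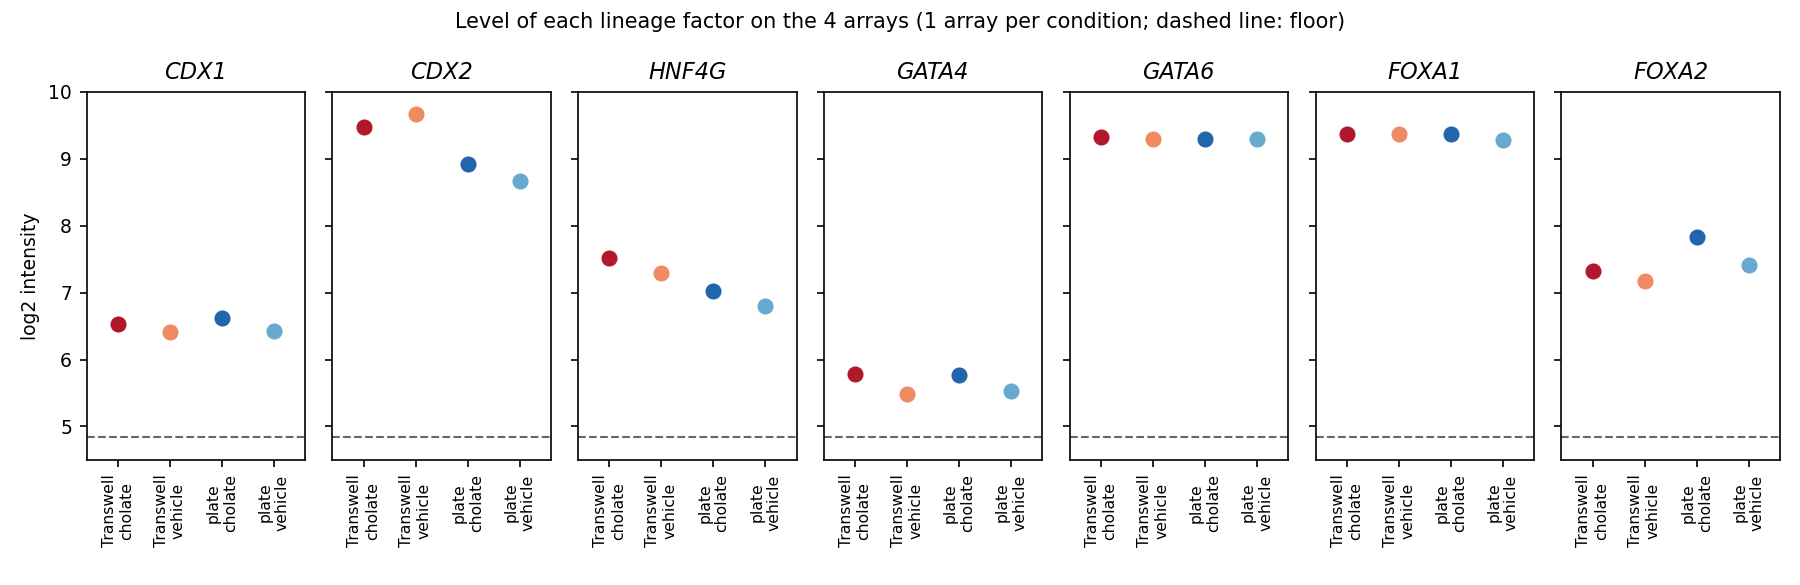
Log2 intensity (vertical axis) of each of the 7 measured factors on the 4 arrays, 1 point per array; the dashed line is the floor of 4.84. CDX2 and HNF4G are higher on both Transwell arrays, FOXA2 is lower on both, and the points of GATA6 span 0.037 and those of FOXA1 0.092 log2.

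The first comparison set Transwell against plate within each treatment. CDX2 was higher on Transwell by 0.56 log2 in cholate (1.48-fold) and by 1.0 log2 in vehicle (2.00-fold). In vehicle 60 of the 12900 genes above the floor had a difference at least as high as that of CDX2, and 1.12% lay further from 0 in either direction. In cholate the figures were 587 genes and 8.64%. HNF4G was higher by 0.49 log2 in cholate and 0.50 log2 in vehicle (1.40-fold and 1.41-fold), nearly the same in both treatments. FOXA2 lay the other way, at -0.49 log2 in cholate and -0.25 log2 in vehicle, which is 1.41-fold and 1.19-fold lower on Transwell. These 3 directions held under quantile normalization, median centring and cyclic loess.

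The remaining factors lay close to 0. CDX1 stood at -0.077 log2 in cholate and -0.019 in vehicle, and GATA4 at 0.016 and -0.049. GATA6 stood at 0.037 in cholate and -0.0027 in vehicle, and FOXA1 at -0.0032 and 0.087. The signs of GATA6 in both treatments and of FOXA1 in cholate turned under another scaling of the arrays, so no direction is given for these 2.

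At 1.5-fold, 0 of the 7 factors were apart in cholate, where 7.77% of all genes above the floor were, 4.02% higher and 3.75% lower. In vehicle 1 of the 7 was apart, CDX2, higher on Transwell, where 5.09% of all genes were apart, 1.93% higher and 3.16% lower. With each array centred on its median, CDX2 also passed 1.5-fold in cholate, at 0.60 log2. The median difference of the 7 factors was 0.016 log2 in cholate and -0.0027 in vehicle, beside 0.020 and 0.016 over all genes.

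Over all 4 arrays, limma was fitted with support and treatment as additive terms, which leaves 1 residual degree of freedom, the difference between the responses. The eBayes step combines it with a variance shared over all probe sets above the floor, at 2.83 prior degrees of freedom. The SEs are therefore not the error of each factor alone. CDX2 was higher on Transwell by 0.78 log2 with an SE of 0.14 (adjusted p = 0.123), HNF4G by 0.49 with an SE of 0.086 (adjusted p = 0.122), and FOXA2 stood at -0.37 with an SE of 0.11 (adjusted p = 0.177). None passed, and nor did any of the 19978 probe sets above the floor (0%), with a smallest adjusted p of 0.0858. Without adjustment 4519 probe sets (22.6%) and 3 of the 7 factors, namely these, had p under 0.05. The other 4 factors had adjusted p of 0.774 to 0.929. A floor at the 60th percentile left 5 of the factors, of which CDX2 and HNF4G passed, each at an adjusted p of 0.0437. At that floor 807 of all 13319 probe sets tested passed.

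**Figure D2:**
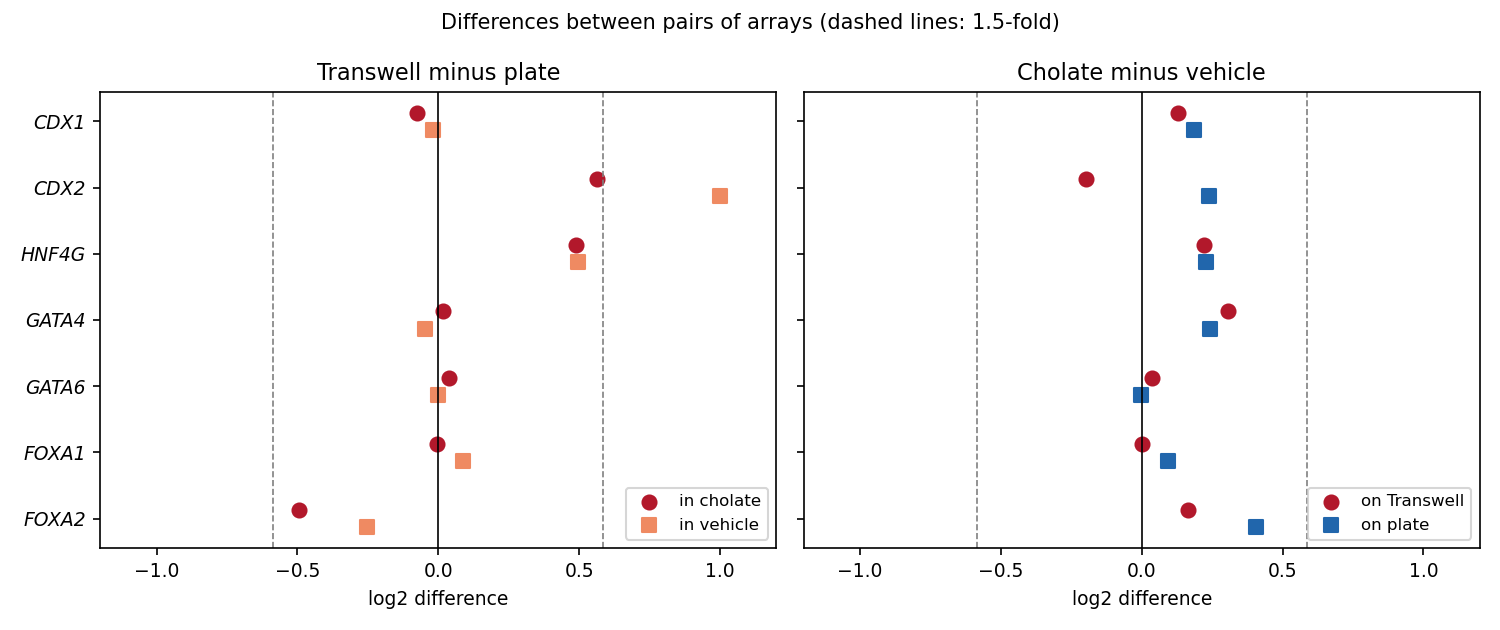
Log2 difference (horizontal axes) of each factor between Transwell and plate (left, in cholate and in vehicle) and between cholate and vehicle (right, on Transwell and on the plate); each point is a difference of 2 arrays and the dashed lines mark 1.5-fold. CDX2 in vehicle, at 1.0, is the single point past a dashed line.

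The second comparison set cholate against vehicle on each support, after 3 h. CDX1, HNF4G, GATA4 and FOXA2 were higher in cholate on both supports, by less than 1.5-fold in every case, and kept that direction under all 3 other scalings. GATA4 was higher by 0.31 log2 on Transwell (1.24-fold) and 0.24 log2 on the plate (1.18-fold), and 7.05% of genes lay further from 0 on Transwell and 26.5% on the plate. HNF4G was higher by 0.22 on Transwell and 0.23 on the plate, 1.17-fold on each. FOXA2 was higher by 0.16 on Transwell and 0.41 on the plate (1.12-fold and 1.33-fold), and CDX1 by 0.13 and 0.19 (1.09-fold and 1.14-fold).

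CDX2 differed in sign between the supports, at -0.20 log2 on Transwell (0.872-fold) and 0.24 log2 on the plate (1.18-fold). The gap between Transwell and plate was thus smaller by 0.44 log2 in cholate than in vehicle, a difference that rests on 1 array per condition and was not tested. FOXA1 stood at 0.0019 on Transwell and 0.092 on the plate, and GATA6 at 0.036 and -0.0042. The Transwell sign of both, and the plate sign of GATA6, turned under another scaling.

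At 1.5-fold, 0 of the 7 factors were apart on Transwell, where 1.09% of all genes above the floor were, 0.357% higher and 0.736% lower. On the plate 0 were apart, where 3.84% of all genes were, 1.49% higher and 2.35% lower. On each support 6 of the 7 were above 0, where 46.4% of all genes were on Transwell and 44.9% on the plate. With each array centred on its median, 4 of the 7 were above 0 on Transwell. In both pairs 5 were above 0 and 0 below, beside 26.1% of all genes above and 34.7% below in both. With median centring 4 were above and 1, GATA6, below, beside 15.3% and 50.5% of all genes, and under quantile normalization and cyclic loess 6 were above and 0 below. The median of the factors was 0.13 log2 on Transwell and 0.23 on the plate, beside -0.011 and -0.025 over all genes. Median centring gave 0.082 on Transwell and 0.16 on the plate, beside -0.058 and -0.096.

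In the additive limma fit the cholate estimate was 0.27 log2 with an SE of 0.087 for GATA4 (adjusted p = 0.449). It was the single factor with an unadjusted p under 0.05 in that fit across all probe sets. FOXA2 had 0.28 with an SE of 0.11 and HNF4G 0.23 with an SE of 0.086, at adjusted p of 0.473 and 0.476. For CDX2 the estimate was 0.021 with an SE of 0.14, and it was negative under median centring. None of the factors passed, and nor did any of the 19978 probe sets (0%), with a smallest adjusted p of 0.312 and 2162 (10.8%) at an unadjusted p under 0.05.

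**Figure D3:**
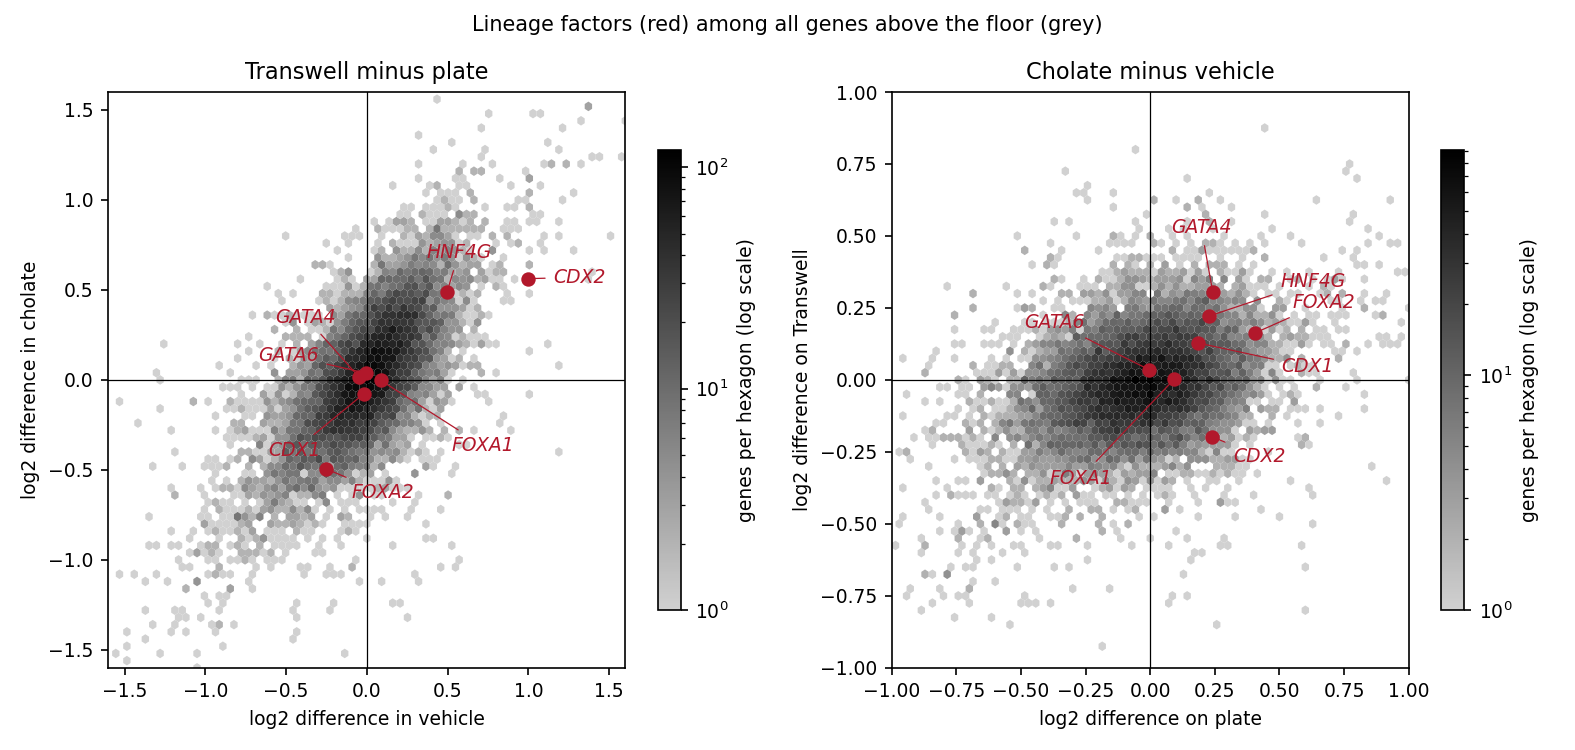
The 7 factors (red) among all 12900 genes above the floor (hexagons shaded by the number of genes on a log scale), by the difference in vehicle (horizontal) and cholate (vertical) between Transwell and plate on the left, and by the difference on the plate (horizontal) and on Transwell (vertical) between cholate and vehicle on the right, all in log2. On the left 34 genes and on the right 134 genes lie outside the frame; CDX2 lies at the right edge of the dense part on the left, with 60 genes at least as high in vehicle, and under the horizontal line on the right.

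Genes most like the 3 factors with the widest ranges were taken by the largest gap, over the 4 arrays, between profiles centred on their own means, among 12899 other genes. For CDX2 they were PIK3R1, a regulatory subunit of phosphoinositide 3-kinase, with a gap of 0.045 log2, the integrin subunit ITGA5 with 0.067 and DDIT4L with 0.083. Within a gap of 0.1 log2 there were 6 genes. PIK3R1 had 10.6 in cholate and 10.8 in vehicle on Transwell, against 9.96 in cholate and 9.76 in vehicle on the plate. For HNF4G they were the zinc finger genes ZNF615 (0.014) and ZNF614 (0.051) and the vasohibin gene VASH2 (0.060), with 31 genes within 0.1 log2. For FOXA2 they were the anchoring protein AKAP6 (0.026), TIPARP, an ADP-ribosyltransferase, with 0.028, and the thyroid hormone receptor THRB (0.034), with 72 genes within 0.1 log2. With 4 arrays such likeness is a description.

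Other factors of the gut and liver lineages were described next, from a list of 32 of which 27 were measured. At 1.5-fold 1 was higher and 1 lower on Transwell in both treatments, where 1.19% of all genes above the floor were higher in both and 1.84% lower in both. NR5A2, the nuclear receptor LRH-1 of liver and gut, had 9.07 in cholate and 9.02 in vehicle on Transwell, against 9.74 in cholate and 9.68 in vehicle on the plate, a difference of -0.67 log2 in each treatment. ZNF503, a zinc finger protein, was higher on Transwell by 0.64 in cholate and 0.68 in vehicle. The list had a median of -0.014 in cholate and 0.044 in vehicle.

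For cholate against vehicle 0 of these 27 were 1.5-fold apart on both supports, where 0.178% of all genes were higher and 0.504% lower on both. ISX, an intestinal homeobox factor that restrains vitamin A uptake, was higher by 0.30 log2 on Transwell and 0.25 on the plate. PDX1, the homeobox factor of pancreas and duodenum, was higher by 0.46 and 0.29, with a mean under the floor. SPDEF, a factor of goblet cells, was higher by 0.20 on Transwell and 0.25 on the plate. Of the 27, 15 were above 0 and 6 below on both supports, and of the 23 above the floor 12 and 5. Of all genes above the floor 26.1% were above 0 and 34.7% below on both. Median centring gave 9 and 7 of the 27, beside 15.3% and 50.5% of all genes. The factors below 0 as deposited included HHEX, a homeobox factor of foregut and liver, at -0.20 on Transwell and -0.46 on the plate. ZNF503, at -0.22 and -0.18, was another, both named here for cholate after their values were seen. The list median was 0.052 on Transwell and 0.099 on the plate.

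Partners of the factors and receptors that oppose them made a list of 12, of which 10 were measured. For support 0 passed 1.5-fold in both treatments, where 1.19% of all genes above the floor were higher and 1.84% lower in both. Below 0 in both were 7 of the 10, with 0 above. Of the 8 with a mean above the floor, 5 were below and 0 above. All genes above the floor had 33.2% below and 39.5% above. Over the 10, the other scalings gave 5 to 7 below and 0 to 1 above. The list medians were -0.14 in cholate and -0.057 in vehicle. TCF7L2, the WNT pathway factor, stood at -0.52 log2 in cholate and -0.32 in vehicle. SMAD4, the shared mediator of TGF-beta and BMP signals, stood at -0.19 and -0.24, and NR0B2, the bile acid responsive corepressor SHP, at -0.19 and -0.60. For cholate 0 passed 1.5-fold on both supports, where 0.178% of all genes were higher and 0.504% lower on both. The medians were 0.0049 on Transwell and 0.039 on the plate. MEIS1 stood at 0.062 on Transwell and 0.075 on the plate, SMAD4 at -0.046 and -0.089, and PPARGC1A, whose mean was under the floor, at 0.0052 and 0.17.

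Genes reported elsewhere as targets of the factors were then set beside them, for support first. Of 16 reported CDX targets, all measured, 4 were at least 1.5-fold higher on Transwell in both treatments and 0 lower, where 1.19% of all genes above the floor were higher and 1.84% lower in both. The list medians were 0.23 in cholate and 0.27 in vehicle. The surface antigen GPA33 had 9.19 in cholate and 8.99 in vehicle on Transwell, against 8.01 in cholate and 7.75 in vehicle on the plate. The lectin LGALS4 was higher by 1.18 log2 in cholate and 1.14 in vehicle. GUCY2C, the guanylin receptor, was higher by 0.94 and 1.01, and the claudin CLDN2, which forms cation pores in tight junctions, by 0.90 and 0.91. Sucrase-isomaltase (SI), the brush border disaccharidase, stood at -0.060 in cholate and 0.078 in vehicle.

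Of 19 reported HNF4 targets 13 were measured, 11 of them above the floor. At 1.5-fold in both treatments 3 were higher and 1 lower on Transwell, beside the same 1.19% and 1.84% of all genes. A second lower member appeared under quantile normalization and cyclic loess. The medians were -0.050 in cholate and -0.16 in vehicle. MTTP, which loads lipid onto apolipoprotein B, had 10.3 in cholate and 10.1 in vehicle on Transwell, against 7.36 in cholate and 7.30 in vehicle on the plate. G6PC1, the catalytic subunit of glucose-6-phosphatase, was higher by 1.19 log2 in cholate and 1.25 in vehicle, and the apolipoprotein APOA4 by 0.78 and 0.77. PCK1, the gluconeogenic enzyme, stood at -0.68 in cholate and -0.94 in vehicle. In both treatments 5 of the 13 were above 0 and 7 below, and of the 11 above the floor 4 and 7. Of all genes above the floor 39.5% were above and 33.2% below. Those below included APOA1, at -0.80 in cholate and -0.57 in vehicle, APOC3, at -0.74 and -0.50, and APOB, at -0.47 and -0.26. These 3 were named after their values were seen. Members of the list thus lay on both sides of 0.

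Of 7 reported intestinal targets of GATA4 or GATA6, 6 were measured and 1 was higher on Transwell at 1.5-fold in both treatments, FABP2, beside 1.19% of all genes. Under each of the 3 other scalings 2 were. SLC10A2, the next nearest to 1.5-fold, stood at 0.58 in cholate and 0.62 in vehicle as deposited. Its plate values, 4.59 in cholate and 4.56 in vehicle, lay under the floor. Its mean, too, was above the floor through the Transwell arrays. The list medians were 0.32 in cholate and 0.26 in vehicle. FABP2, the intestinal fatty acid binding protein, had 6.17 in cholate and 5.52 in vehicle on Transwell, against 4.71 in cholate and 4.49 in vehicle on the plate. Both plate values lay under the floor, where differences are compressed, and its mean was above the floor through the Transwell arrays. Of 13 reported FOXA targets, all measured and 9 above the floor, 1 was higher and 3 were lower, beside 1.19% and 1.84% of all genes. The lower ones numbered 2 with median centring and 4 under quantile normalization and cyclic loess. The medians were -0.11 in cholate and -0.046 in vehicle. The trefoil peptide TFF1 was higher by 0.99 log2 in cholate and 0.98 in vehicle. Albumin (ALB) stood at -0.80 and -1.03, alpha-fetoprotein (AFP), just past 1.5-fold, at -0.60 and -0.59, and PCK1, which is on both lists, as given above. In the limma fit for support, the smallest adjusted p among these target genes was 0.0858, so none passed.

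**Figure D4:**
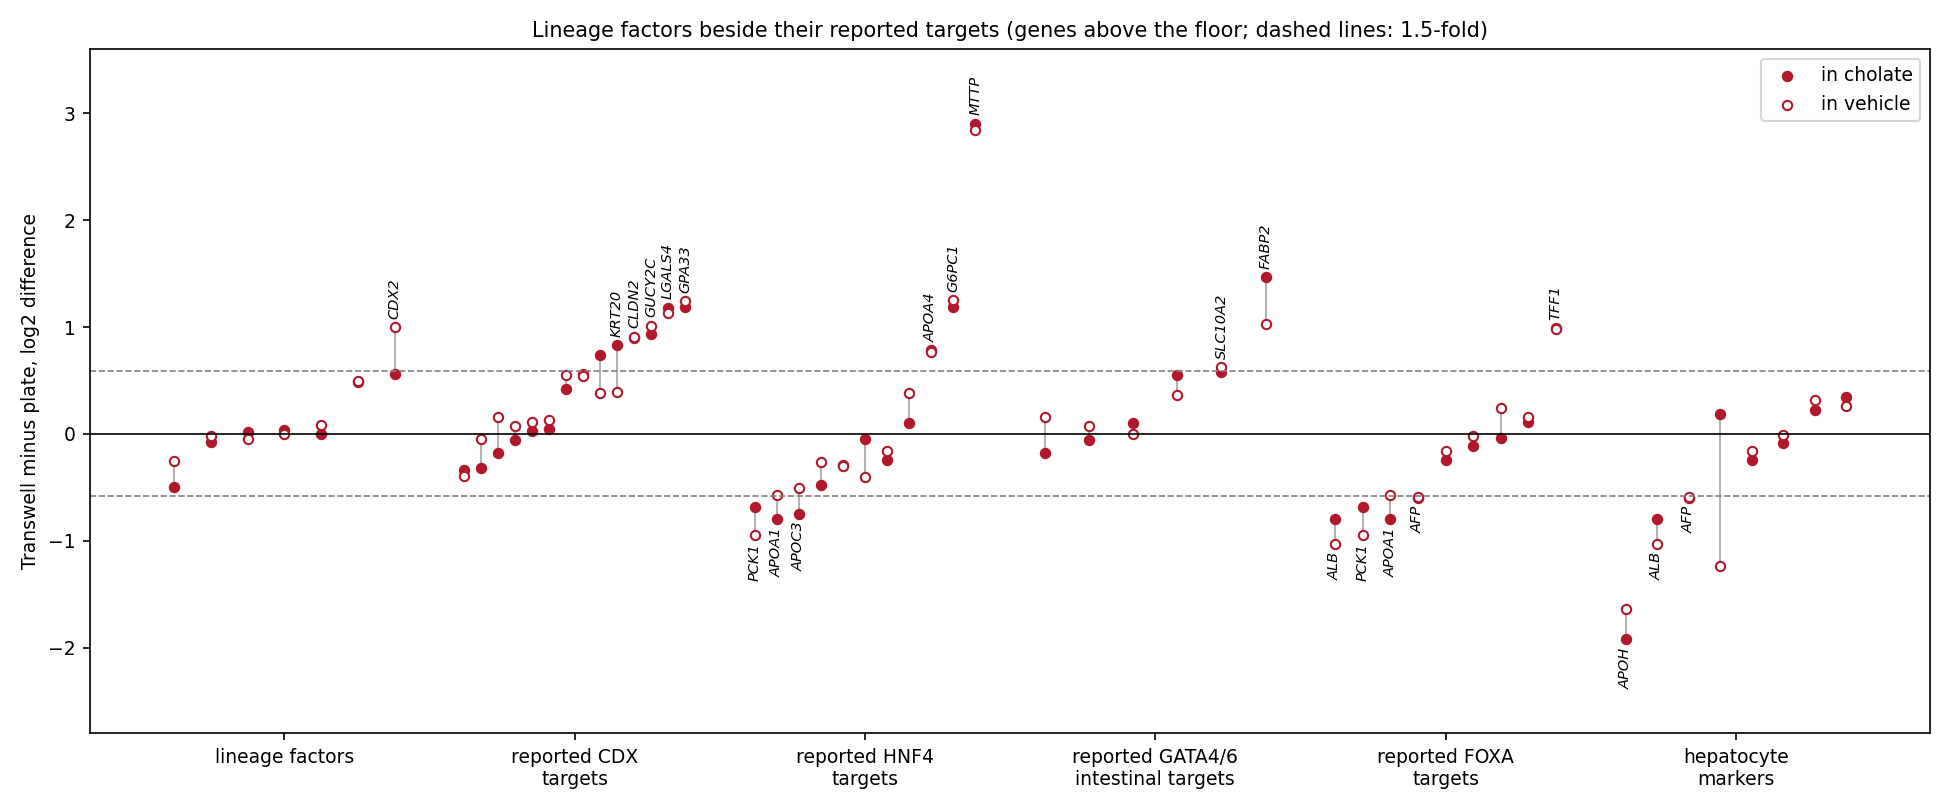
Log2 difference between Transwell and plate (vertical axis) of the 7 factors, of the genes above the floor among their reported targets and of hepatocyte markers; filled points are in cholate, open points in vehicle, lines join the points of a gene and dashed lines mark 1.5-fold. Most points of a gene lie close together, and target genes lie on both sides of 0, with MTTP highest at 2.90 in cholate.

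For cholate against vehicle 0 members of the 4 target lists were 1.5-fold apart on both supports. Of all genes above the floor, 0.178% were higher and 0.504% lower on both. Above 0 on both were 10 of the 16 CDX targets (1 below), 5 of the 13 HNF4 targets (0 below), 4 of the 6 GATA targets (1 below) and 8 of the 13 FOXA targets (3 below). Some of these genes were under the floor. Among those above it, 8 of 14 CDX, 5 of 11 HNF4 and 5 of 9 FOXA targets were above 0. Below 0 were 1, 0 and 2. Beside these counts, 26.1% of all genes above the floor were above 0 on both supports and 34.7% below. With median centring the numbers above and below were 6 and 3 for CDX, 4 and 1 for HNF4, 3 and 2 for GATA, and 7 and 3 for FOXA targets. With that scaling 15.3% of all genes above the floor were above 0 on both supports and 50.5% below. The CDX target list had medians of 0.048 log2 on Transwell and 0.12 on the plate, with SI higher by 0.20 and 0.33, and GPA33 by 0.20 and 0.26. The HNF4 list had medians of 0.099 and 0.16, with PCK1 higher by 0.47 on Transwell and 0.21 on the plate, APOA4 by 0.22 and 0.20, and transthyretin (TTR) by 0.14 and 0.23. The GATA list had medians of 0.10 and 0.22, with FABP6, the ileal bile acid binding protein, higher by 0.41 and 0.23. FABP2 was higher by 0.66 on Transwell, and on the plate both its values lay under the floor. The FOXA list had medians of 0.064 on Transwell and 0.15 on the plate.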

How the data were processed

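Per the labels' protocols, each array held labelled cDNA from total RNA pooled from 3 samples of 1 condition. The deposited values are log2 intensities of 33297 probe sets, made by the authors with RMA, per the submitters' processing notes. This method corrects background, normalizes between arrays and summarises probes, so a shift shared by most genes would not be seen. For RMA, the software and the definition of probe sets were not given in the sources used here. Symbols came from the platform annotation, and the Entrez numbers of the 7 measured factors matched RefSeq (GRCh38.p14). For each gene, the probe set with 1 symbol and the highest mean stood for it. Counts and medians of a list cover its measured genes, also those under the floor, unless stated. Some genes are on several lists, so the lists are not independent. ALB and AFP are FOXA targets and hepatocyte markers, and APOA4 and FABP2 are on a target list and among the enterocyte markers. Shares of all genes cover the 12900 above the floor.

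Differences between 2 arrays are described against 1.5-fold, with no p-value. The test was limma 3.58.1 in R 4.3.3 (lmFit and eBayes, 2-sided), with Benjamini-Hochberg adjusted p under 0.05 over all 19978 probe sets above the floor. SEs are those of this model and do not cover variation between cultures. Tables and figures used Python 3.11.15, pandas 2.3.3, numpy 2.4.6 and matplotlib 3.10.9.

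The factors, the 15 other gene lists and the tests were chosen with earlier results of these data known. All factors are named. From each other list the genes named are those at least 1.5-fold apart the same way in both pairs of arrays, at most 6, or otherwise up to 3 with the largest smaller difference. The markers read for cell identity, the support values of SI and the arrays of PIK3R1 were added for description. The tallies of the lists under other scalings were added after the data were seen. Further alternatives for the factors were those scalings, other floors, folds and priors, the mean of a gene's probe sets, and a fit without the other factor.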

Additional observations from a re-analysis of the deposited data

Results flagged for a closer look

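For 4 of the factors the difference had opposite signs in the 2 pairs of arrays of a comparison, and with 1 array per condition the difference between pairs was not tested. CDX2 stood at -0.20 log2 for cholate against vehicle on Transwell and at 0.24 on the plate, so its response was -0.44 log2 on Transwell relative to the plate, with the same signs under quantile normalization, median centring and cyclic loess. GATA4 stood at 0.016 for Transwell against plate in cholate and -0.049 in vehicle, a difference of 0.064. GATA6 stood at 0.037 in cholate and -0.0027 in vehicle for that comparison, and at 0.036 on Transwell and -0.0042 on the plate for cholate against vehicle, a difference of 0.040 in each case. FOXA1 stood at -0.0032 in cholate and 0.087 in vehicle for Transwell against plate, a difference of -0.090. The limma SE of a mean difference was 0.087 to 0.089 for GATA4, GATA6 and FOXA1, and 0.14 for CDX2. In that fit the difference between the pairs is itself the residual that enters the SE. These SEs are therefore no measure of the error of that difference.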

How the results depend on the processing

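Under quantile normalization, median centring and cyclic loess, all 28 differences of the 7 factors moved by less than the factor's limma SD after eBayes. That SD, 0.086 for HNF4G and 0.14 for CDX2, includes the variance shared over probe sets and is not the factor's own residual SD. The mean of a gene's probe sets cannot differ for factors with 1 probe set. Centred on array medians, 1 factor in place of 0 was 1.5-fold apart between Transwell and plate in cholate. At 2-fold in place of 1.5-fold, the genes apart numbered 181 against 1002 for Transwell against plate in cholate, 146 against 657 in vehicle, 18 against 141 for cholate on Transwell and 130 against 495 on the plate. A floor at the 60th percentile left 75 against 141 for cholate on Transwell and 293 against 495 on the plate. Centring on medians also moved the share of higher calls, to 61.8% against 51.7% for Transwell against plate in cholate, 18.2% against 32.6% for cholate on Transwell and 25.9% against 38.8% on the plate.

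In limma for support, 807 of 13319 probe sets passed with the floor at the 60th percentile (353 higher and 454 lower on Transwell). With an intensity trend 293 of 19978 passed (105 and 188), against 0 of 19978 in the main fit. That higher floor tests fewer probe sets and leaves 5 of the factors. Over the alternatives the smallest adjusted p of any factor was 0.0437 to 0.214 for support and 0.356 to 1.0 for cholate. No paired analysis was possible because replicates share no numbers at 1 array per condition, but the additive fit already compares support within treatment and cholate within support. Signal near background limits GATA4 most.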

Other observations

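Some markers of cell types that Caco-2 cells can resemble were 1.5-fold apart between the supports in both treatments, where 1.19% of all genes above the floor were higher on Transwell and 1.84% lower. Of 8 hepatocyte markers, all above the floor, 3 were lower on Transwell and 0 higher (2 lower with each array centred on its median, AFP lying close to the threshold), with medians of -0.17 log2 in cholate and -0.37 in vehicle. APOH, a plasma glycoprotein made by liver, had 9.13 in cholate and 9.41 in vehicle on Transwell, against 11.05 in both treatments on the plate, and the others were ALB and AFP. The fibrinogen gene FGA lay the other way, at 0.35 and 0.26, as did the plasma protein gene AHSG, at 0.22 and 0.32, both named here after their values were seen. For cholate against vehicle 3 hepatocyte markers were above 0 and 3 below on both supports, with medians of -0.0059 on Transwell and -5.32e-05 on the plate. Of all genes above the floor 26.1% were above 0 and 34.7% below on both. FGA stood at 0.22 on Transwell and 0.14 on the plate, AFP at -0.088 and -0.081. Of 8 small intestinal enterocyte markers 2 were higher on Transwell and 0 lower, with medians of 0.049 in cholate and 0.13 in vehicle. They were APOA4 and FABP2, and FABP2 had both plate values under the floor and reached a mean above it through its Transwell arrays. In both treatments 4 of the 8 were above 0 and 2 below, beside 39.5% and 33.2% of all genes. The 2 below were APOB, at -0.47 in cholate and -0.26 in vehicle, and ALPI, at -0.32 and -0.043, named here after their values were seen. For cholate 5 of these 8 were above 0 and 0 below on both supports, as deposited, beside the same 26.1% and 34.7% of all genes. Median centring gave 4 and 1, beside 15.3% and 50.5% of all genes. ANPEP, the brush border aminopeptidase N, was higher in cholate by 0.26 on Transwell and 0.51 on the plate. Of 8 colonocyte markers 1 was lower on Transwell, carbonic anhydrase CA2, at -0.77 in cholate and -0.64 in vehicle, with medians of 0.086 and 0.024. In both treatments 4 of these 8 were above 0 and 2 below, beside 39.5% and 33.2% of all genes. Of the 6 above the floor, 3 were above 0 and 1 below. Cyclic loess gave 3 and 3 of the 8. SLC26A3 lay the other way from CA2, at 0.42 in cholate and 0.30 in vehicle, named here after its values were seen. No marker in these lists passed limma, where the smallest adjusted p was 0.0858 for support.

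Goblet cell markers (5 measured, 3 above the floor) had none at 1.5-fold for support in both treatments, with medians of -0.12 log2 in cholate and 0.099 in vehicle. Among 15 factors of other endoderm or gut regions 12 were measured, again with none at 1.5-fold and medians of -0.010 and -0.020. IRX3, an Iroquois homeobox factor, stood at -0.48 in cholate and -0.23 in vehicle, and HOXB13, a posterior homeobox factor, at 0.17 and 0.42. OTX2, a head homeobox factor whose mean was under the floor, stood at 0.26 and 0.48. Epithelial and Caco-2 identity markers had medians of -0.12 in cholate and -0.13 in vehicle, with 1 of 8, LGALS4, higher at 1.5-fold. Fibroblast markers had medians of -0.084 and -0.097 and leukocyte markers -0.074 and 0.069, with none at 1.5-fold in both treatments. For cholate against vehicle no member of these lists was 1.5-fold apart on both supports. Of all genes above the floor, 0.178% were higher and 0.504% lower on both. A list of 7 noncoding neighbours of the factors was not analysed here.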
